A study of Arabidopsis thaliana with 24 samples.

Results

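The comparison described here is warm against cool growth in 1 natural accession of Arabidopsis thaliana, IP-Svi-0: whole seedlings kept at 27 °C against whole seedlings kept at 16 °C. Its members were the 6 libraries that the labels name as IP-Svi-0 at these temperatures, 3 per temperature, of 24 libraries in the series. The other libraries are IP-Svi-0 at 10 and 23 °C and Col-0, the reference accession, at 10, 16, 23 and 27 °C, again 3 per group. The series set out to find genes that differ between the accessions and that take part in the early flowering of IP-Svi-0. Seeds of both accessions were germinated on MS medium after 3 days of cold and moved to growth rooms, where the 27 °C seedlings were collected 7 days later and the 16 °C seedlings 12 days later. The labels name no transgene and no drug in either group. Temperature and age cannot be told apart in this design, and the labels do not say whether the 3 libraries of a group came from separate cultures, so p-values measure the spread between these libraries, which may be technical.

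Arabidopsis grows over the whole range between these temperatures without the damage that heat shock brings, and it changes its gene expression with ambient warmth. Known parts of that response are chaperones under heat shock factors, the evening complex of the clock (ELF3, ELF4 and LUX), which restrains the transcription factor PIF4, and MADS-box factors such as FLC, FLM and SVP, which hold back the floral activators FT and SOC1. Salicylic acid defence is known to run higher at cool than at warm ambient temperature, and anthocyanins and antioxidants are known to build up in the cold.

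The 16 °C libraries held 757211, 560025 and 564723 reads counted at genes, and the 27 °C libraries 535141, 556738 and 799066. These were 2.21 to 3.32% of all reads in each library, and 69.9 to 85.1% lay where the counting step named no gene. Because the library kit keeps the strand and no source used here gives the strand setting of the counting, counts placed at a gene may come from the other strand, so an overlapping gene is named below where there is one. Levels are CPM, counts scaled to library size with TMM factors, and 3 counts in a library correspond to 3.05 to 5.90 CPM. On the first principal component of the 6 libraries (36.7% of the variance) the temperatures separated, with 27 °C replicate 3 nearest to the 16 °C libraries. The second (26.7%) set 16 °C replicate 1 apart from the other 16 °C libraries. Markers of leaves and roots were present. The 8 leaf markers, such as RBCS1A and CAB1, summed to 12752 to 18002 CPM at 16 °C and 8655 to 11264 CPM at 27 °C, and the 9 root markers to 813 to 891 and 832 to 1292 CPM. Of the 7 flower markers, AP1, AP3, PI, AG and SEP1 had no count in either group, and the other 2 summed to 0 to 3.5 CPM at 16 °C and 9.16 to 15.7 CPM at 27 °C. In bulk seedlings fewer cells of a type and less RNA per cell cannot be told apart.

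Of 10097 genes with enough counts, 331 (3.28%) passed edgeR's quasi-likelihood test at an adjusted p under 0.05: 177 (1.75%) were higher and 154 (1.53%) lower at 27 °C. Each count of called list members below is to be read beside this 3.28%. The genes that rose had a median log2 change of 1.62 and those that fell one of -1.32, beside -0.02 for all tested genes. The smallest change called was 0.75 on the log2 scale, and 298 of the 331 exceeded 1. In 318 of the called genes no 27 °C library overlapped the 16 °C libraries, as against 1768 of all tested genes (17.5%). The called genes were 312 protein-coding genes, 8 pseudogenes, 2 transcribed pseudogenes, 8 long non-coding RNAs and 1 other non-coding RNA. The number called rested on single libraries: it was 190 without 16 °C replicate 3, 147 without 27 °C replicate 1 and 152 without 27 °C replicate 2, and rose to 328 higher and 413 lower genes with a covariate. The covariate was the percentage of a library's nuclear counts that fell at genes free of an opposite exon. It was 49.6, 45.7 and 50.1% in the 16 °C libraries and 42.4, 45.9 and 52.8% in the 27 °C libraries, and its part in single results was not tested.

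**Figure D1:**
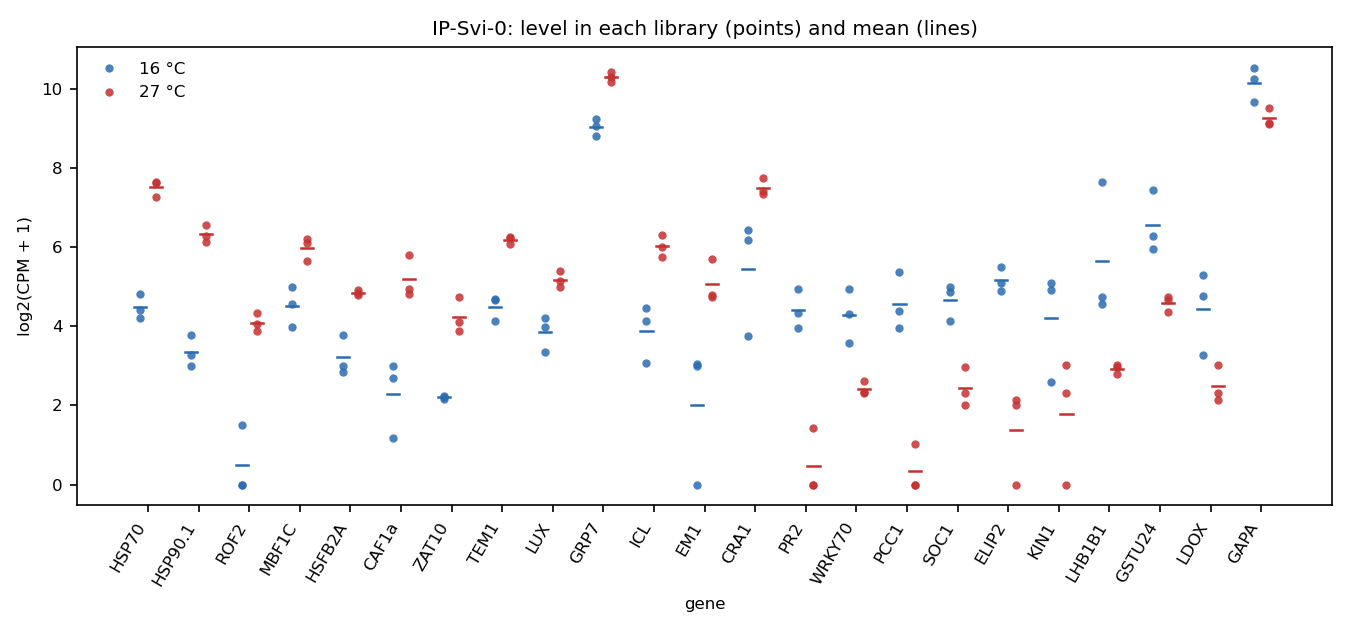
Level of 23 genes in each IP-Svi-0 library, as log2(CPM + 1) on the vertical axis, with 16 °C in blue, 27 °C in red and a line at the mean of 3 libraries. HSP70 lies higher at 27 °C in every library, the defence genes PR2 and PCC1 fall to or near 0, and the KIN1 points of the temperatures overlap.

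A few heat shock genes, 5 of 28 tested, rose. HSP70 (AT3G12580), an HSP70 chaperone of the cytosol, had 27.4, 20.1 and 17.5 CPM at 16 °C and 153, 199 and 194 CPM at 27 °C (log2 change 3.04 ± 0.29 (SE), adjusted p 1.15e-08). HSP90.1, its heat-inducible HSP90 partner, had 8.71, 12.8 and 6.99 CPM at 16 °C and 76.7, 93.7 and 69.2 CPM at 27 °C (log2 change 3.05 ± 0.33 (SE), adjusted p 8.98e-08). For both genes every 27 °C library lay far above every 16 °C library. Separate groups were a condition of a rule by which both were named. ROF2, a peptidyl-prolyl isomerase that works with HSP90, had 1 count in the 16 °C libraries together and 35 in the 27 °C libraries, a ratio of 32.4 (95% counting interval 5.44 to 1315), adjusted p 8.76e-05. HSFB2A, a class B heat shock factor, had 6.22, 12.8 and 6.99 CPM at 16 °C and 27.5, 29.0 and 26.5 CPM at 27 °C (log2 change 1.69 ± 0.43 (SE), adjusted p 0.019). MBF1C, a transcriptional coactivator induced by heat, had 14.9, 31.1 and 22.7 CPM at 16 °C and 72.8, 68.2 and 48.8 CPM at 27 °C (log2 change 1.47 ± 0.37 (SE), adjusted p 0.0169); its exons overlap AT3G04685 over 176 bp on the other strand. The list of heat shock and protein folding genes had 44 matched members, and none of the 28 tested fell. The list's median log2 change was 0.17, and 20 of its 28 changes were above 0 and 8 below.

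Further chaperone genes outside the list, picked after their values were seen, also rose. Hop3, which links HSP70 to HSP90, went from 9.15 to 37.6 CPM (log2 change 2.11, adjusted p 0.00102) and overlaps PME1 over 163 bp. The other HSP70 gene Hsp70-2 went from 15.2 to 44.6 CPM (log2 change 1.54, adjusted p 0.015), and Hsp89.1, an organellar HSP90, from 32.0 to 68.1 CPM (log2 change 1.13, adjusted p 0.0454). AT5G51440, which is annotated as an HSP20-like chaperone, had 1 count at 16 °C and 28 at 27 °C, a ratio of 25.9 (95% counting interval 4.28 to 1059), adjusted p 0.00586. AT1G56300, a DnaJ-domain protein, went from 1.83 to 18.3 CPM (log2 change 3.07, adjusted p 0.00335) and overlaps AT1G56290 over 775 bp. Several of these calls rested on single libraries. HSFB2A was not called without 16 °C replicate 1 or 3 or 27 °C replicate 2 (adjusted p up to 0.0863) and MBF1C was not called without 16 °C replicate 1 or 3 or 27 °C replicate 1 or 2 (adjusted p up to 0.0983). Hsp70-2 was not called without 16 °C replicate 3 or 27 °C replicate 2 (adjusted p up to 0.0756) and Hsp89.1 was not called without 16 °C replicate 1 or 2 or 27 °C replicate 1 or 2 or 3 (adjusted p up to 0.167). Without 16 °C replicate 2, which held the sole 16 °C count of ROF2 and of AT5G51440, their fitted log2 changes moved from 4.51 to 6.31 and from 4.22 to 6.01. That of Hop3 moved from 2.11 to 2.73 without 16 °C replicate 3 and that of AT1G56300 from 3.07 to 4.13 without 16 °C replicate 1.

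Some genes of the rapid response to touch and stress rose as well. CAF1a, a deadenylase that shortens mRNA tails, had 1.24, 5.49 and 6.99 CPM at 16 °C and 29.5, 27.3 and 54.9 CPM at 27 °C (log2 change 3.15 ± 0.56 (SE), adjusted p 4.88e-04). ZAT10, a zinc finger repressor, had 3.73, 3.66 and 3.5 CPM at 16 °C and 13.8, 25.6 and 16.3 CPM at 27 °C (log2 change 2.27 ± 0.53 (SE), adjusted p 0.0097). CZF1, a CCCH zinc finger protein, went from 17.5 to 46.5 CPM (log2 change 1.34, adjusted p 0.0122) and the transcription factor ERF104 from 68.6 to 146 CPM (log2 change 1.06, adjusted p 0.0435). In these genes no 27 °C library overlapped the 16 °C range, which was a condition of a rule by which CAF1a was named. Altogether 4 of 27 tested members passed the test, all upward, with a list median of 0.87 and 26 of 27 changes above 0. Members that missed the threshold included SZF1 at 1.28 (adjusted p 0.0748), CAF1b at 1.32 (adjusted p 0.0981) and TCH2, a calmodulin-like touch gene that overlaps AT5G37760 over 419 bp, at 1.18 (adjusted p 0.157). ZAT10 was not called without 27 °C replicate 2 (log2 change 2.02, adjusted p 0.0674) and CZF1 was not called without 16 °C replicate 3 (log2 change 1.19, adjusted p 0.0732). ERF104 was not called without 16 °C replicate 2 or 3 or 27 °C replicate 1 or 2 (adjusted p up to 0.2).

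Several clock genes with evening expression rose, and so did a pair of evening-phased outputs. LUX, the DNA-binding member of the evening complex, had 14.9, 9.15 and 17.5 CPM at 16 °C and 41.3, 30.7 and 34.6 CPM at 27 °C (log2 change 1.32 ± 0.34 (SE), adjusted p 0.0227) and overlaps AT3G46650 over 698 bp. ELF4, its partner, had 28.6, 22 and 28.0 CPM at 16 °C and 61.0, 35.8 and 76.3 CPM at 27 °C (log2 change 1.15 ± 0.32 (SE), adjusted p 0.0329). PRR3, a pseudo-response regulator, had 34.8, 40.2 and 22.7 CPM at 16 °C and 62.9, 81.8 and 61.0 CPM at 27 °C (log2 change 1.06 ± 0.29 (SE), adjusted p 0.0311). In the 3 genes the groups did not overlap, though the lowest 27 °C value of ELF4 was close to the highest at 16 °C. JMJD5, a histone demethylase tied to the clock, went from 29.1 to 67.5 CPM (log2 change 1.2, adjusted p 0.0122). These were 4 of 15 tested clock genes, none fell, 14 of 15 changes were above 0 and the median was 0.46. ELF3, the scaffold of the evening complex, had 53.5, 75.0 and 62.9 CPM at 16 °C and 72.8, 71.6 and 67.2 CPM at 27 °C (log2 change 0.15 ± 0.28 (SE), adjusted p 0.854), and these ranges overlap. ELF3 shares exon bases with ALPHA-VPE over 24 bp. TOC1 had a log2 change of 0.46 (adjusted p 0.515) and PRR5 one of 0.81 (adjusted p 0.351). The labels give no hour of collection, so time of day was not tested. LUX was not called without 16 °C replicate 2 or 27 °C replicate 1 (adjusted p up to 0.0862) and ELF4 was not called without 16 °C replicate 2 or 3 or 27 °C replicate 1 or 3 (adjusted p up to 0.186). PRR3 was not called without 16 °C replicate 3 or 27 °C replicate 1 or 2 (adjusted p up to 0.161) and JMJD5 was not called without 16 °C replicate 3 or 27 °C replicate 2 (adjusted p up to 0.0806).

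GRP7, an RNA-binding protein whose transcript peaks in the evening, was among the most abundant genes that rose, with 446, 532 and 605 CPM at 16 °C and 1379, 1149 and 1252 CPM at 27 °C (log2 change 1.26 ± 0.29 (SE), adjusted p 0.00816). CAT3, a catalase with an evening peak, had 217, 159 and 196 CPM at 16 °C and 305, 387 and 346 CPM at 27 °C (log2 change 0.86 ± 0.24 (SE), adjusted p 0.0365). The evening element, AAAATATCT on either strand, is the known site through which morning clock factors hold evening genes down. It lay 3 times in the 250 bases before the annotated start of GRP7 and once each before CAT3 and LUX, and these promoters are shown because they carry the motif in genes that rose. Sequences are from the Col-0 reference (RefSeq, TAIR10.1), 5′ to 3′ toward the gene, with the evening element in capitals; IP-Svi-0 may differ from them.
GRP7, chr2:9266558-9266807, minus strand: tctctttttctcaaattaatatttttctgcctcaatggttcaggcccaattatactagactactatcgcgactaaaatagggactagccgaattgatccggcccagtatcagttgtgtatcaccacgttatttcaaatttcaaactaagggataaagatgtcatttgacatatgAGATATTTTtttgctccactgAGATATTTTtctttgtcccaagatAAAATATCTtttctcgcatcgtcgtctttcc
CAT3, chr1:7142722-7142971, plus strand: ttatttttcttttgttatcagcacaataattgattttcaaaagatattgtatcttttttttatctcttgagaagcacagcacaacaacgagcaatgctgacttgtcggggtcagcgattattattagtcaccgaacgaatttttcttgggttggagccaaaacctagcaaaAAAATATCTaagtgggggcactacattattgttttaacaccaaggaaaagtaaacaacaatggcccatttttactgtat
LUX, chr3:17182792-17183041, plus strand: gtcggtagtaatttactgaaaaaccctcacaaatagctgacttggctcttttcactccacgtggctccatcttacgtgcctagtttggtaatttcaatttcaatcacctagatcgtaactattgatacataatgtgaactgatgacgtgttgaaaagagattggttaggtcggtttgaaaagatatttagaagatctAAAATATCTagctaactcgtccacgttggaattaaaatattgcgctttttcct
Of the genes called higher 4 of 177 (2.26%) held the motif in this window, of those called lower 3 of 154 (1.95%), and of all tested nuclear genes 261 of 10049 (2.6%), so its share was no higher among the called genes. CAT3 was not called without 16 °C replicate 2 or 3 or 27 °C replicate 2 or 3 (adjusted p up to 0.164).

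Some genes of seed reserves and seed maturation rose. ICL, isocitrate lyase of the glyoxylate cycle that turns seed oil into sugar, had 7.47, 16.5 and 21.0 CPM at 16 °C and 78.7, 52.8 and 63.1 CPM at 27 °C (log2 change 2.16 ± 0.39 (SE), adjusted p 6.72e-04). EM1, a late embryogenesis abundant (LEA) protein, had 0, 7.32 and 6.99 CPM at 16 °C and 51.1, 25.6 and 26.5 CPM at 27 °C (log2 change 2.91 ± 0.61 (SE), adjusted p 0.00424). CRA1, a 12S storage globulin, had 12.4, 71.3 and 85.7 CPM at 16 °C and 214, 160.2 and 171 CPM at 27 °C (log2 change 1.73 ± 0.49 (SE), adjusted p 0.0397), its 16 °C replicate 1 lying far below the other 16 °C libraries. These were 3 of 11 tested members of the list of seed storage and oil body genes. All 11 changes were above 0, with a median of 1.08 beside -0.02 for all genes. CRU3, another globulin, went from 219.8 to 629 CPM (log2 change 1.53, adjusted p 0.126), and OLEO2, an oil body protein that overlaps AT5G40410 over 15 bp, from 10.8 to 30.1 CPM (log2 change 1.56, adjusted p 0.105). The 12 seed markers summed to 114 to 465 CPM at 16 °C and to 711 to 1224 CPM at 27 °C, where the seedlings were 5 days younger; the part of age in this was not tested. CRU2 had no count at 16 °C and SESA4 none at 27 °C. Without 16 °C replicate 1 the log2 change of EM1 moved from 2.91 to 2.23. CRA1 was not called without 16 °C replicate 1 or 27 °C replicate 1 or 2 (adjusted p up to 0.171).

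The same direction held for LEA proteins, which protect membranes and proteins in drying cells. Among 27 tested genes with that name in the RefSeq annotation, a group chosen after the values were seen, 5 rose and none fell, with a median of 0.32. AT3G53040 had 13.7, 25.6 and 19.2 CPM at 16 °C and 70.8, 63.1 and 80.4 CPM at 27 °C (log2 change 1.91 ± 0.38 (SE), adjusted p 0.00203). AT3G02480 had 19.9, 27.4 and 19.2 CPM at 16 °C and 76.7, 54.5 and 51.9 CPM at 27 °C (log2 change 1.44 ± 0.37 (SE), adjusted p 0.0188). LEA18 went from 23.8 to 64.1 CPM (log2 change 1.44, adjusted p 0.0214), AT2G42560 from 4.43 to 24.8 CPM (log2 change 2.35, adjusted p 0.0129) and AT3G17520 from 17.2 to 45.9 CPM (log2 change 1.41, adjusted p 0.0291). In each of the 5 the groups were separate. All 5 held the G-box, CACGTG, in the 250 bases before the start. Of the 27 tested LEA genes, which include these 5, 6 held it (22.2%), and of 10049 tested nuclear genes 735 (7.31%). Of the 177 genes called higher 14 (7.91%) held it, and of the 154 called lower 15 (9.74%). The core CCGAC, looked for on both strands like 3 other motifs, was in 4 of the 5, in 9 of the 27 (33.3%), in 29 of the 177 genes called higher (16.4%), in 15 of the 154 called lower (9.74%) and in 1308 of the 10049 tested genes (13.0%). The heat shock element GAANNTTC was in 19 of the 177 (10.7%), 14 of the 154 (9.09%) and 905 of the 10049 (9.01%). The W-box core TTGACC was in 26 (14.7%), 14 (9.09%) and 1192 (11.9%) of the same sets. Of the 5 LEA genes called, 0 held the heat shock element and 1 the W-box core. EM1, the LEA gene that rose in the seed list above, was not among the 27 and held none of these motifs in this window. The G-box is a palindrome, counted once, that is bound by bZIP and bHLH factors, among them those of abscisic acid signalling. Promoters of 3 of the 5 genes are shown, from the same reference, with the G-box in capitals.
AT3G53040, chr3:19666498-19666747, minus strand: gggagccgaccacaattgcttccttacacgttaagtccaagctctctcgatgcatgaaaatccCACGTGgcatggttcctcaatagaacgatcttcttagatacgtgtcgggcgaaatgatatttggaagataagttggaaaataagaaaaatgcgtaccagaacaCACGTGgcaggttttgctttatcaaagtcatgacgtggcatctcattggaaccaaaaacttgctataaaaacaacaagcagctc
AT3G02480, chr3:511970-512219, plus strand: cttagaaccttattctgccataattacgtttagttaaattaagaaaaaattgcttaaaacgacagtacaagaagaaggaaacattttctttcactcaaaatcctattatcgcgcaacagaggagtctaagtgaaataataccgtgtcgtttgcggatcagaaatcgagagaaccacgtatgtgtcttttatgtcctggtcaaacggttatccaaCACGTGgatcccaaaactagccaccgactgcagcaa
LEA18, chr2:14863413-14863662, minus strand: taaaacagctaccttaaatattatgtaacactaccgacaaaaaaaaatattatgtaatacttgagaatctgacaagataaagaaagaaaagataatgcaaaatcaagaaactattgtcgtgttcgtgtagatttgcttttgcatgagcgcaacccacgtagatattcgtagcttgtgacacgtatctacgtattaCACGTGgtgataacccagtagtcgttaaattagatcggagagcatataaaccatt
In the list of abscisic acid genes 0 of 23 tested members were called by edgeR in either direction, beside 3.28% of all tested genes. The list is too short to read a low share from. AT3G02480 was not called without 16 °C replicate 1 or 3 or 27 °C replicate 1 (adjusted p up to 0.0997) and LEA18 was not called without 16 °C replicate 1 or 3 or 27 °C replicate 1 or 2 (adjusted p up to 0.135). AT2G42560 was not called without 16 °C replicate 2 or 27 °C replicate 1 or 2 (adjusted p up to 0.0616) and AT3G17520 was not called without 16 °C replicate 1 or 2 or 27 °C replicate 1 or 2 or 3 (adjusted p up to 0.0801).

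Among flowering genes the floral activator SOC1 fell and a pair of floral repressors rose. SOC1, a MADS-box gene that brings flowering forward, had 31.1, 16.5 and 28.0 CPM at 16 °C and 3.93, 6.82 and 3.05 CPM at 27 °C (log2 change -2.49 ± 0.48 (SE), adjusted p 0.00124), the highest 27 °C library lying below the lowest at 16 °C. SOC1 was set by name, and it also met a rule that required such separation. TEM1 and TEM2 repress FT and the gibberellin pathway. TEM1 had 24.9, 16.5 and 24.5 CPM at 16 °C and 74.7, 66.5 and 75.3 CPM at 27 °C (log2 change 1.69 ± 0.30 (SE), adjusted p 4.52e-04) and TEM2 had 27.4, 20.1 and 24.5 CPM at 16 °C and 59.0, 63.1 and 46.8 CPM at 27 °C (log2 change 1.19 ± 0.31 (SE), adjusted p 0.0227). TEM2 was not called without 16 °C replicate 2 or 3 or 27 °C replicate 1 or 2 (adjusted p up to 0.0995). FLC, the vernalization repressor, had 21.2, 20.1 and 22.7 CPM at 16 °C and 15.7, 11.9 and 8.14 CPM at 27 °C; the groups were separate, but the change did not pass the test (log2 change -0.90 ± 0.49 (SE), adjusted p 0.357), and FLC overlaps AT5G01675 over 804 bp.

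The other MADS repressors did not pass either. SVP had 49.8, 27.4 and 31.5 CPM at 16 °C and 43.3, 56.2 and 44.8 CPM at 27 °C (log2 change 0.37, adjusted p 0.561). FLM had 8.71, 3.66 and 12.2 CPM at 16 °C and 3.93, 13.6 and 7.12 CPM at 27 °C (log2 change -0.02, adjusted p 1.0) and MAF2 had 17.42, 12.8 and 12.2 CPM at 16 °C and 5.9, 15.3 and 19.3 CPM at 27 °C (log2 change 0.01, adjusted p 1.0), and in all 3 the ranges overlapped. MAF4 went from 9.75 to 27.4 CPM with separate groups (log2 change 1.35, adjusted p 0.0881), and was called without 27 °C replicate 3 (log2 change 1.65, adjusted p 0.0393). FT, the mobile floral signal, had too few counts for a test, 12 counts at 16 °C and 2 at 27 °C, a ratio of 6.49 (95% counting interval 1.44 to 59.7) lower at 27 °C. PIF4, the growth factor of warm seedlings, had 1 count at 16 °C and 14 at 27 °C, a ratio of 13.0 (95% counting interval 1.97 to 548). CO, the daylength activator of FT, had 21 counts at 16 °C and 11 at 27 °C, GI 12 counts at 16 °C and 25 at 27 °C, and MAF3 18 counts at 16 °C and 13 at 27 °C; these were not tested, and CO overlaps AT5G15843 over 738 bp. By list, 1 of 8 tested floral integrators and activators fell and none rose, and 2 of 23 tested floral repressors rose and none fell, with medians of 0.19 and 0.20. In the autonomous and vernalization pathways 1 of 20 tested genes, GRP7, rose.

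One of the largest falls in read number lay at AT5G15845, a long non-coding RNA, named here after its values were seen. It had 1642, 1398 and 1010.3 CPM at 16 °C and 429, 308 and 187 CPM at 27 °C (log2 change -2.14 ± 0.38 (SE), adjusted p 4.51e-04). Its exons overlap those of COL1, a relative of CO, over 1698 bp on the other strand. COL1 itself had 79.6, 117 and 64.7 CPM at 16 °C and 61.0, 52.8 and 31.5 CPM at 27 °C (log2 change -0.88 ± 0.29 (SE), adjusted p 0.0841), and was called with the covariate named above (adjusted p 0.00652). Since the counted strand is not known, the reads at AT5G15845 and at COL1 cannot be assigned to the one or the other. Of the 331 called genes, 106 (32.0%) had an exon overlap with an opposite gene, as against 36.7% of the tested genes. In 54 of them the opposite gene was tested as well. It was called in 2 of these, beside 3.28% of all tested genes, and the 2 were a single pair (AT2G13660 and AT2G13665) that rose together. The change of the opposite gene had the same sign in 40. The same count was not made over all tested genes, so 40 has no background here.

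Several defence genes tied to salicylic acid fell, and of these PR2 and PCC1 had 1 count each at 27 °C. PR2, a secreted glucanase and a standard reporter of this pathway, had 29.9, 14.6 and 19.2 CPM at 16 °C and 0, 1.7 and 0 CPM at 27 °C. It held 43 counts at 16 °C and 1 at 27 °C, a ratio of 46.5 (95% counting interval 7.91 to 1878) lower at 27 °C, adjusted p 6.72e-04. PCC1, a small pathogen-responsive and clock-controlled protein, had 19.9, 14.6 and 40.2 CPM at 16 °C and 0, 0 and 1.02 CPM at 27 °C. It held 47 counts at 16 °C and 1 at 27 °C, a ratio of 50.8 (95% counting interval 8.68 to 2049), adjusted p 6.72e-04. WRKY70, a transcription factor of the pathway, had 18.7, 11 and 29.7 CPM at 16 °C and 3.93, 5.11 and 4.07 CPM at 27 °C (log2 change -2.14 ± 0.59 (SE), adjusted p 0.0345). LURP1, induced by an oomycete pathogen, had 194, 23.8 and 90.9 CPM at 16 °C and 13.8, 10.2 and 16.3 CPM at 27 °C (log2 change -2.92 ± 0.55 (SE), adjusted p 9.49e-04), with 16 °C replicate 2 far below the other 16 °C libraries. In all 4 genes the temperatures did not overlap, which was a condition of a rule by which PR2, PCC1 and LURP1 were named. HR4, an RPW8 homologue, had 11 counts at 16 °C and 0 at 27 °C, at least 3.64-fold lower against a floor of 3 counts over the group (adjusted p 0.0342), and WAK1, a cell wall receptor kinase, had 32 counts at 16 °C and 3 at 27 °C (adjusted p 0.00123); both were picked after their values were seen.

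In the list of salicylic acid defence genes, 2 of 8 tested members (PR2 and WRKY70) fell, none rose, and the median was -0.44. Of the 8 changes 4 were above 0 and 4 below, so the list as a whole did not move in one direction. PAD4, an upstream lipase-like regulator, went from 327 to 161 CPM (log2 change -1.04, adjusted p 0.0913), whereas NPR1, the salicylic acid receptor, went from 83.9 to 103 CPM (log2 change 0.29, adjusted p 0.68) and overlaps AT1G08667 over 214 bp. None of 15 tested immune receptors of the NLR class was called by edgeR, beside 3.28% of all tested genes, a list too short to read a low share from. WRKY70 was not called without 16 °C replicate 1 or 3 or 27 °C replicate 1 or 2 or 3 (adjusted p up to 0.193) and HR4 was not called without 16 °C replicate 1 or 3 or 27 °C replicate 1 or 2 or 3 (adjusted p up to 0.156). Without 16 °C replicate 1 the log2 change of LURP1 moved from -2.92 to -2.01. The fitted change of HR4 moved from -4.77 to -4.09 without 16 °C replicate 1. That of PR2 moved from -4.98 to -4.29 without 27 °C replicate 3. It moved to -6.67 without 27 °C replicate 2, and that of PCC1 from -5.17 to -6.81 without 27 °C replicate 3, since each then had no count at 27 °C.

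In the list of photosynthesis genes 4 of 65 tested members fell and none rose. Of the 65 changes 61 were below 0, and the median was -0.51. The summed level of the 8 leaf markers moved the same way (12752 to 18002 CPM at 16 °C against 8655 to 11264 CPM at 27 °C). The markers share members with this list, among them RBCS1A and GAPA, and GAPA was the 1 of 8 called lower. Their sum is therefore not a separate measure of leaf tissue. The part of leaf content in this result was not tested. GAPA, a subunit of the Calvin cycle dehydrogenase, had 1479.7, 816 and 1218 CPM at 16 °C and 549, 562 and 737 CPM at 27 °C (log2 change -0.93 ± 0.26 (SE), adjusted p 0.0381). PRK, phosphoribulokinase of the same cycle, went from 1079 to 599.8 CPM (log2 change -0.85, adjusted p 0.0472), and PSAN, a photosystem I subunit, from 297 to 139.9 CPM (log2 change -1.07, adjusted p 0.00981). They overlap NSI over 33 bp and AT5G64030 over 39 bp. LHB1B1, an antenna protein of photosystem II, had 200.4, 25.6 and 22.7 CPM at 16 °C and 5.9, 6.82 and 7.12 CPM at 27 °C (log2 change -3.64 ± 0.67 (SE), adjusted p 6.72e-04). Here 1 library, 16 °C replicate 1, stood far above all others. RBCS1A, the small subunit of Rubisco and the most abundant of the named genes, had 10933, 7560.5 and 10673 CPM at 16 °C and 4973, 4874 and 6693 CPM at 27 °C with separate groups, but did not pass the test (log2 change -0.82 ± 0.29 (SE), adjusted p 0.117). DESeq2 called it, with a log2 change of -0.80 and an adjusted p of 0.0211, and so did edgeR with the covariate (-0.76, adjusted p 0.00233).

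Several assembly and regulatory genes of the chloroplast, picked after their values were seen, fell as well. GLK1, a transcription factor of photosynthesis genes, went from 131 to 65.6 CPM (log2 change -1.0, adjusted p 0.0387). HCF173 and HCF244, both needed to make the D1 protein of photosystem II, went from 211 to 88.9 CPM (log2 change -1.25, adjusted p 0.00435) and 90.05 to 41.9 CPM (log2 change -1.07, adjusted p 0.026), and HCF173 overlaps AT1G05253 over 373 bp. DEG1, a thylakoid protease, SIG5, a sigma factor of the plastid polymerase, TROL, a thylakoid anchor protein, and PSI-P, a thylakoid membrane protein, had log2 changes of -1.17, -1.83, -0.88 and -0.90. The fall of SIG5 was carried by 16 °C replicate 1, since its log2 change was -0.46 without that library. In the list of chlorophyll synthesis genes, HEME2, uroporphyrinogen decarboxylase, fell from 95.1 to 46.7 CPM (log2 change -1.0, adjusted p 0.0446), as 1 of 25 tested genes, with a median of -0.30. GAPA was not called without 16 °C replicate 1 or 3 or 27 °C replicate 1 or 2 (adjusted p up to 0.201) and PRK was not called without 16 °C replicate 1 or 2 or 3 or 27 °C replicate 1 or 2 (adjusted p up to 0.245). PSAN was not called without 16 °C replicate 3 or 27 °C replicate 1 or 2 (adjusted p up to 0.177) and LHB1B1 was not called without 16 °C replicate 1 (log2 change -1.78, adjusted p 0.141). GLK1 was not called without 16 °C replicate 1 or 27 °C replicate 1 or 2 or 3 (adjusted p up to 0.418) and HCF173 was not called without 16 °C replicate 1 (log2 change -0.64, adjusted p 0.151). HCF244 was not called without 16 °C replicate 1 or 3 or 27 °C replicate 1 or 2 (adjusted p up to 0.184) and DEG1 was not called without 16 °C replicate 1 or 27 °C replicate 1 or 2 or 3 (adjusted p up to 0.236). SIG5 was not called without 16 °C replicate 1 or 27 °C replicate 1 or 2 (adjusted p up to 0.736) and TROL was not called without 16 °C replicate 2 or 3 or 27 °C replicate 1 or 2 (adjusted p up to 0.226). PSI-P was not called without 16 °C replicate 1 or 3 or 27 °C replicate 1 or 2 (adjusted p up to 0.172) and HEME2 was not called without 16 °C replicate 1 or 3 or 27 °C replicate 1 or 2 (adjusted p up to 0.273).

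**Figure D2:**
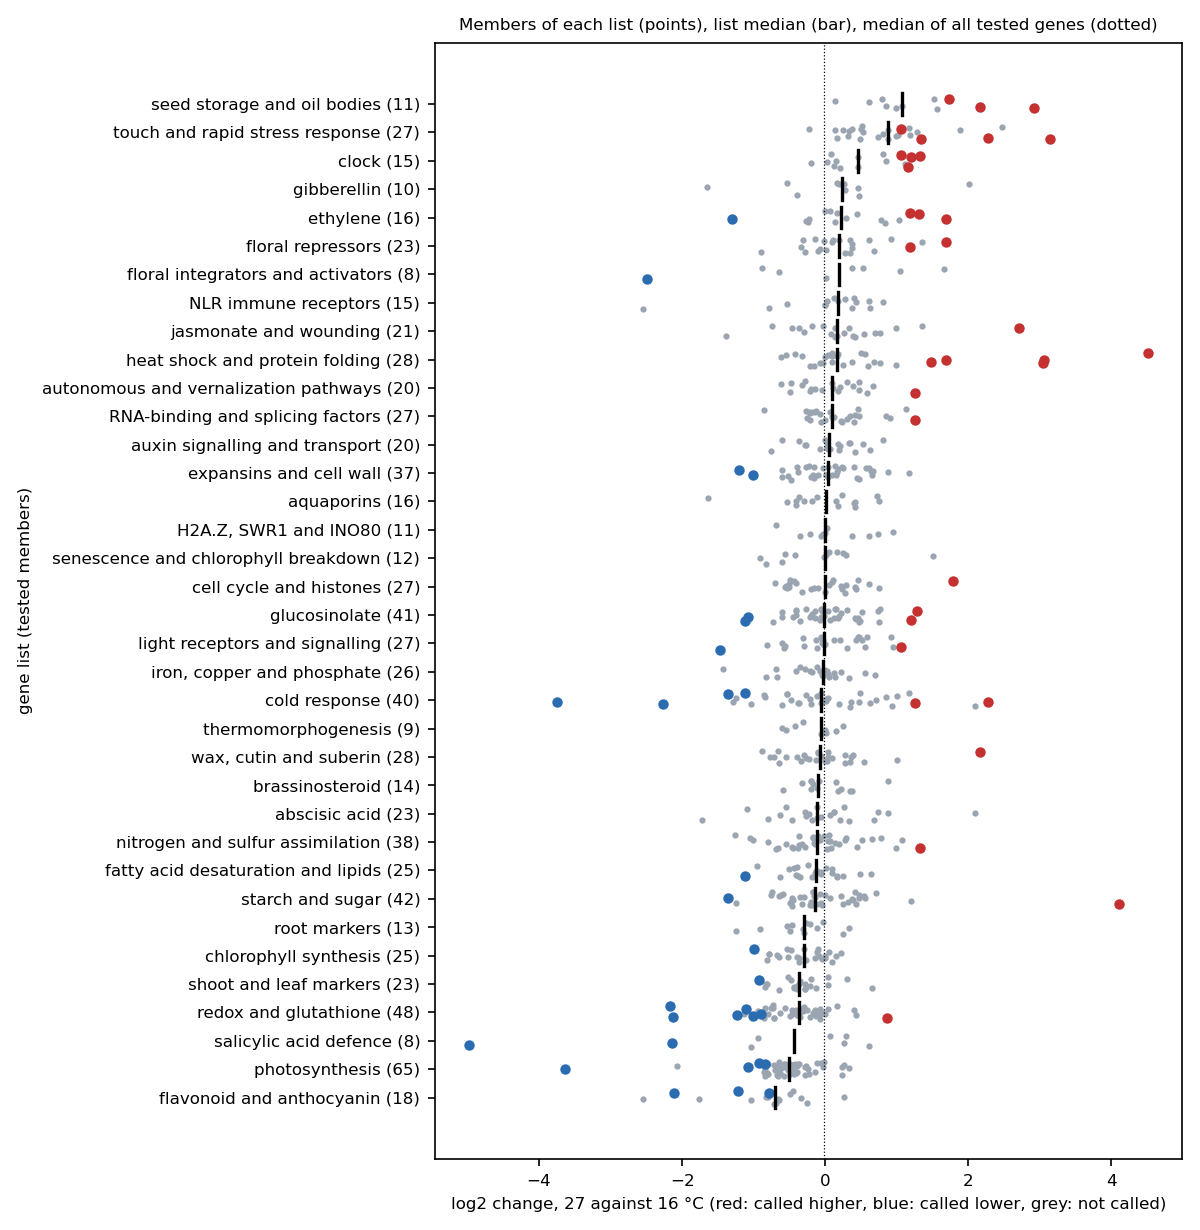
Log2 change at 27 against 16 °C (horizontal axis) for the tested members of the 36 gene lists with at least 8 tested members, ordered by list median. Red points were called higher, blue points called lower and grey points not called; black bars are list medians and the dotted line is the median of all tested genes, -0.02. Seed storage genes lie farthest to the right (median 1.08) and flavonoid genes farthest to the left (median -0.71).

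Some flavonoid genes fell. LDOX, the anthocyanidin synthase, had 8.71, 38.4 and 26.2 CPM at 16 °C and 3.93, 3.41 and 7.12 CPM at 27 °C (log2 change -2.11 ± 0.49 (SE), adjusted p 0.00995). CHI, chalcone isomerase, had 54.8, 56.7 and 71.7 CPM at 16 °C and 23.61, 23.9 and 29.5 CPM at 27 °C (log2 change -1.21 ± 0.32 (SE), adjusted p 0.026), and PAL1, the entry enzyme of the phenylpropanoids, went from 207 to 119 CPM (log2 change -0.78, adjusted p 0.0483). These were 3 of 18 tested flavonoid and anthocyanin genes. Of the 18 changes 17 were below 0, with a median of -0.71. TT4, chalcone synthase, overlaps AT5G13940 over 2 bp and went from 492 to 277 CPM (log2 change -0.82, adjusted p 0.0718), and DFR, dihydroflavonol reductase, from 24.7 to 6.16 CPM (log2 change -1.76, adjusted p 0.0965), neither past the threshold.

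In the list of redox and glutathione genes 6 of 48 tested members fell and 1, CAT3, rose, with 43 changes below 0 and a median of -0.37. GSTU24, a glutathione transferase, had 174, 76.8 and 61.2 CPM at 16 °C and 19.7, 25.6 and 24.4 CPM at 27 °C (log2 change -2.17 ± 0.33 (SE), adjusted p 5.68e-05), with 16 °C replicate 1 far above the other 16 °C libraries. VTC2, which commits sugar to ascorbate, had 437, 276 and 234 CPM at 16 °C and 114, 148 and 176 CPM at 27 °C (log2 change -1.11 ± 0.25 (SE), adjusted p 0.00671). The transferases GSTU17 and GSTU1 fell as well, with log2 changes of -1.24 and -2.12, and the ranges of GSTU1 overlapped. GR1, glutathione reductase, went from 155 to 75.5 CPM (log2 change -1.02, adjusted p 0.0166) and overlaps PMP over 74 bp. CAT2, the leaf catalase of photorespiration, went from 518 to 279 CPM (log2 change -0.89, adjusted p 0.0252) and overlaps AT4G35080 over 95 bp, so the catalases CAT2 and CAT3 moved in opposite directions. Without 16 °C replicate 1 the log2 change of GSTU24 moved to -1.51. That of GSTU1 was -0.61 without 16 °C replicate 1 and -2.74 without 27 °C replicate 2. LDOX was not called without 16 °C replicate 2 or 3 or 27 °C replicate 1 or 2 (adjusted p up to 0.0987) and CHI was not called without 16 °C replicate 3 or 27 °C replicate 1 or 2 (adjusted p up to 0.138). PAL1 was not called without 16 °C replicate 1 or 2 or 3 or 27 °C replicate 1 or 2 (adjusted p up to 0.278) and VTC2 was not called without 16 °C replicate 1 or 27 °C replicate 1 (adjusted p up to 0.0986). GSTU17 was not called without 16 °C replicate 1 or 27 °C replicate 1 or 2 or 3 (adjusted p up to 0.128) and GSTU1 was not called without 16 °C replicate 1 or 27 °C replicate 1 or 3 (adjusted p up to 0.732). GR1 was not called without 16 °C replicate 1 or 27 °C replicate 1 or 2 (adjusted p up to 0.134) and CAT2 was not called without 16 °C replicate 1 or 3 or 27 °C replicate 1 or 2 (adjusted p up to 0.162).

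Of 40 tested cold response genes 4 fell and 2, GRP7 and ZAT10, rose, with a median of -0.06. ELIP2, an early light-induced chloroplast protein, had 28.6, 43.9 and 33.2 CPM at 16 °C and 0, 3.41 and 3.05 CPM at 27 °C (log2 change -3.75 ± 0.53 (SE), adjusted p 1.67e-05). BAM3, the chloroplast beta-amylase that makes maltose from starch, had 1149, 756 and 827 CPM at 16 °C and 393, 331 and 346 CPM at 27 °C (log2 change -1.35 ± 0.25 (SE), adjusted p 6.72e-04) and overlaps AT4G06665 over 518 bp. These groups were far apart, whereas those of KIN1, a cold-induced hydrophilic protein, overlapped, with 4.98, 29.3 and 33.2 CPM at 16 °C and 3.93, 0 and 7.12 CPM at 27 °C (log2 change -2.26 ± 0.64 (SE), adjusted p 0.0373). For ELIP2 separate groups were a condition of a rule by which it was named. FAD8, a chloroplast desaturase known to be active in the cold, went from 77.8 to 35.1 CPM (log2 change -1.12, adjusted p 0.0157) and overlaps PAI2 over 61 bp. The other classical cold genes were low at both temperatures: KIN2 had 3.73, 9.15 and 19.2 CPM at 16 °C and 17.7, 11.9 and 19.3 CPM at 27 °C (log2 change 0.71, adjusted p 0.43), COR15A had 1.24, 7.32 and 10.5 CPM at 16 °C and 0, 10.2 and 4.07 CPM at 27 °C (log2 change -0.26, adjusted p 0.909) and COR15B, which overlaps AT2G42520 over 468 bp, had 4.98, 1.83 and 6.99 CPM at 16 °C and 5.9, 1.7 and 10.2 CPM at 27 °C (log2 change 0.48, adjusted p 0.812). Their ranges overlapped. The change of KIN1 was -3.38 without 27 °C replicate 3. FAD8 was not called without 16 °C replicate 2 or 27 °C replicate 1 or 2 (adjusted p up to 0.102) and KIN1 was not called without 16 °C replicate 2 or 3 or 27 °C replicate 1 or 2 (adjusted p up to 0.233).

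Among growth and hormone genes EXPA1, EXPA10 and EBF2 fell, and CYCD3;1, ERF2, TEM1 and TEM2 rose. By edgeR none was called, beside 3.28% of all tested genes, among 9 tested thermomorphogenesis genes, 20 of auxin, 14 of brassinosteroid, 10 of gibberellin, 16 aquaporins and 11 of H2A.Z exchange, lists too short to read a low share from. PHYB, the phytochrome that senses warmth, had 42.3, 27.4 and 24.5 CPM at 16 °C and 11.8, 22.2 and 26.5 CPM at 27 °C (log2 change -0.60, adjusted p 0.397), and PIF5, a partner of PIF4, had 43.6, 29.3 and 24.5 CPM at 16 °C and 33.4, 27.3 and 12.2 CPM at 27 °C (log2 change -0.54, adjusted p 0.499), with overlapping ranges. The expansins EXPA1 and EXPA10, which loosen cell walls, fell from 84.2 to 42.0 CPM (log2 change -1.01, adjusted p 0.0188) and from 67.2 to 29.9 CPM (log2 change -1.2, adjusted p 0.0227), as 2 of 37 tested cell wall genes. CYCD3;1, the cyclin that drives entry into division, rose with 9.96, 12.8 and 15.7 CPM at 16 °C and 33.4, 64.8 and 34.6 CPM at 27 °C (log2 change 1.78 ± 0.40 (SE), adjusted p 0.00611), the single call among 27 tested cell cycle and histone genes. In the ethylene list 3 of 16 rose (ERF2, with log2 change 1.30, adjusted p 0.0296, and TEM1 and TEM2, named above) and 1 fell, EBF2, an F-box protein that removes EIN3 (log2 change -1.31, adjusted p 0.049), which overlaps AT5G25340 over 439 bp.

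Metabolic and defence outputs were mixed. BAM5, an extraplastidic beta-amylase, had 1 count at 16 °C and 26 at 27 °C, a ratio of 24.1 (95% counting interval 3.95 to 986), adjusted p 0.0133, and with BAM3 it made up the 2 calls among 42 tested starch and sugar genes. VSP2, a jasmonate-induced storage protein, had 0, 3.66 and 5.24 CPM at 16 °C and 13.8, 17.0 and 22.4 CPM at 27 °C (log2 change 2.71 ± 0.68 (SE), adjusted p 0.0188), 1 of 21 tested jasmonate genes. Among 41 tested glucosinolate genes, CYP79B3 (indole glucosinolate synthesis, log2 change 1.2, adjusted p 0.0279) and MYB29 (a regulator of the aliphatic class, log2 change 1.28, adjusted p 0.0442) rose. The breakdown genes ESM1 and TGG2, a myrosinase, fell (log2 change -1.12, adjusted p 0.0177 and log2 change -1.08, adjusted p 0.0284). LTP2, a lipid transfer protein of the cuticle, had 21.2, 31.1 and 35 CPM at 16 °C and 110.2, 123 and 151 CPM at 27 °C (log2 change 2.17 ± 0.32 (SE), adjusted p 2.66e-05) with widely separate groups. It was the 1 call among 28 tested wax, cutin and suberin genes (3.57%). The nitrate transporter NRT1.5 rose from 23.8 to 59.3 CPM (log2 change 1.32, adjusted p 0.00783) and overlaps PKp3 over 16 bp. It was the 1 call among 38 tested nitrogen and sulfur genes (2.63%). These shares, and 4.76% in both the starch and the jasmonate list, lie near the 3.28% of all tested genes. The calls in these lists are therefore given as single genes and not as results about the processes. Of 27 tested light signalling genes NPH3, a phototropism protein, rose (log2 change 1.06, adjusted p 0.0139) and overlaps SAC51 over 24 bp, and HYH, the homologue of HY5, fell (log2 change -1.47, adjusted p 0.0361). No gene was called by edgeR among 12 tested senescence genes, 26 of iron, copper and phosphate, and 13 root markers. Beside 3.28% of all tested genes, these lists are too short to read a low share from. Without 16 °C replicate 1 the change of ERF2 was 2.41, that of BAM5 moved from 4.1 to 5.86 and that of VSP2 from 2.71 to 2.03. The change of VSP2 was 3.49 without 16 °C replicate 3. EXPA1 was not called without 16 °C replicate 1 or 3 or 27 °C replicate 1 or 2 (adjusted p up to 0.173) and EXPA10 was not called without 16 °C replicate 1 or 3 or 27 °C replicate 1 or 3 (adjusted p up to 0.109). CYCD3;1 was not called without 27 °C replicate 2 (log2 change 1.44, adjusted p 0.0805) and ERF2 was not called without 16 °C replicate 2 or 3 or 27 °C replicate 1 or 2 or 3 (adjusted p up to 0.142). EBF2 was not called without 16 °C replicate 1 or 3 or 27 °C replicate 1 or 2 (adjusted p up to 0.229) and BAM5 was not called without 16 °C replicate 3 (log2 change 3.76, adjusted p 0.062). VSP2 was not called without 16 °C replicate 1 or 27 °C replicate 3 (adjusted p up to 0.119) and CYP79B3 was not called without 16 °C replicate 1 or 27 °C replicate 2 (adjusted p up to 0.11). MYB29 was not called without 16 °C replicate 1 or 3 or 27 °C replicate 1 or 2 or 3 (adjusted p up to 0.188) and ESM1 was not called without 16 °C replicate 3 or 27 °C replicate 1 or 2 (adjusted p up to 0.115). TGG2 was not called without 16 °C replicate 1 or 3 or 27 °C replicate 1 or 2 (adjusted p up to 0.188) and NPH3 was not called without 27 °C replicate 1 (log2 change 1.03, adjusted p 0.057). HYH was not called without 16 °C replicate 2 or 3 or 27 °C replicate 1 or 2 or 3 (adjusted p up to 0.272).

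The largest changes with non-overlapping groups included genes in none of the lists. AT5G27845, annotated as a pseudogene and without a symbol, had no count at 16 °C and 102, 56.2 and 34.6 CPM at 27 °C, at least 41.2-fold higher against a floor of 3 counts over the group (adjusted p 8.86e-07). CYP72A9, a cytochrome P450 that hydroxylates gibberellins, had 3.73, 9.15 and 6.99 CPM at 16 °C and 129.8, 59.7 and 41.7 CPM at 27 °C (log2 change 3.51 ± 0.46 (SE), adjusted p 4.92e-06). CRK4, a receptor kinase, had 4.98, 1.83 and 5.24 CPM at 16 °C and 55.1, 61.4 and 26.5 CPM at 27 °C (log2 change 3.40 ± 0.48 (SE), adjusted p 2.26e-05). NUDT21, a nudix hydrolase, had 3 counts at 16 °C and 57 at 27 °C, a ratio of 17.58 (95% counting interval 5.72 to 87.7), adjusted p 8.76e-05. AT4G27280, a calcium-binding EF-hand protein, had 16.2, 11 and 12.2 CPM at 16 °C and 86.6, 75.0 and 98.7 CPM at 27 °C (log2 change 2.68 ± 0.45 (SE), adjusted p 1.87e-04). AT4G38820, AT1G15830 and AT5G12110 rose by 3.52, 4.18 and 2.65 on the log2 scale, and overlap AT4G38825 over 433 bp, AT1G15825 over 387 bp and AT5G12120 over 1221 bp on the other strand. Without 16 °C replicate 1 the change of AT1G15830 moved to 3.54, and without 16 °C replicate 3 that of NUDT21 moved from 3.92 to 4.86, and to 3.26 without 16 °C replicate 1. In all of these the 27 °C libraries lay above the 16 °C libraries, as the rule that picked them required.

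Downward, GRP3S, a glycine-rich cell wall protein, had 1016, 413 and 349.6 CPM at 16 °C and 90.5, 78.4 and 47.8 CPM at 27 °C (log2 change -3.06 ± 0.33 (SE), adjusted p 8.98e-08), with every 27 °C library far below every 16 °C library. The rule that picked the genes of this paragraph required separate groups. AT2G41090, a calcium-binding EF-hand protein, had 85.9, 89.6 and 196 CPM at 16 °C and 25.6, 10.2 and 14.2 CPM at 27 °C (log2 change -2.91 ± 0.37 (SE), adjusted p 2.31e-06) and overlaps AT2G09220 over 16 bp. AT3G16670, of the Ole e 1 extensin family, AT1G19960 and AT5G41761 had log2 changes of -2.79, -2.70 and -2.98. AT2G35570, annotated as a transcribed pseudogene, had 9.96, 67.7 and 6.99 CPM at 16 °C and 0, 0 and 3.05 CPM at 27 °C, a difference carried by 1 library at 16 °C. Its fitted change moved from -4.03 to -6.92 without 27 °C replicate 3. AT3G16670 moved to -2.10 without 16 °C replicate 3 and to -2.18 without 27 °C replicate 3. AT2G35570 was not called without 16 °C replicate 2 (log2 change -2.39, adjusted p 0.162) and AT3G16670 was not called without 16 °C replicate 3 or 27 °C replicate 3 (adjusted p up to 0.141). AT5G41761 was not called without 16 °C replicate 1 (log2 change -2.50, adjusted p 0.0518). Without 16 °C replicate 1 the log2 change of GRP3S moved from -3.06 to -2.39.

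The libraries at 23 °C, grown for 8 days, were not used in this comparison, and give a view of the steps between. For 153 of the 177 genes that rose the 23 °C mean lay between the means at 16 and 27 °C, for 21 it lay beyond that at 27 °C and for 3 on the far side of that at 16 °C. Of the 154 genes that fell these numbers were 142, 8 and 4. All of these genes were chosen for a difference between 16 and 27 °C, which favours a 23 °C mean between those means. The same counts were not made over all tested genes, so they have no background here. HSP70 had means of 4.94 ± 0.831, 21.7 ± 5.13, 78.1 ± 8.39 and 182 ± 25.2 CPM (SD, n = 3) at 10, 16, 23 and 27 °C, so its mean was higher at every step. SOC1 had 31.9 ± 7.68, 25.2 ± 7.71, 14.4 ± 4.86 and 4.6 ± 1.97 CPM, a lower mean at every step. GRP7 had 863 ± 135, 528 ± 79.7, 485 ± 80.2 and 1260.0 ± 115 CPM with the lowest means at 16 and 23 °C. ICL had 1.85 ± 1.64, 15 ± 6.88, 30.8 ± 20.7 and 64.9 ± 13.0 CPM and PR2 had 27.5 ± 6.57, 21.2 ± 7.81, 5.1 ± 3.47 and 0.568 ± 0.984 CPM. At 10 °C, 26 of the 177 higher genes and 9 of the 154 lower genes had a mean nearer to that at 27 °C than to that at 16 °C on the log2(CPM + 1) scale. These counts have no background over all tested genes either.

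**Figure D3:**
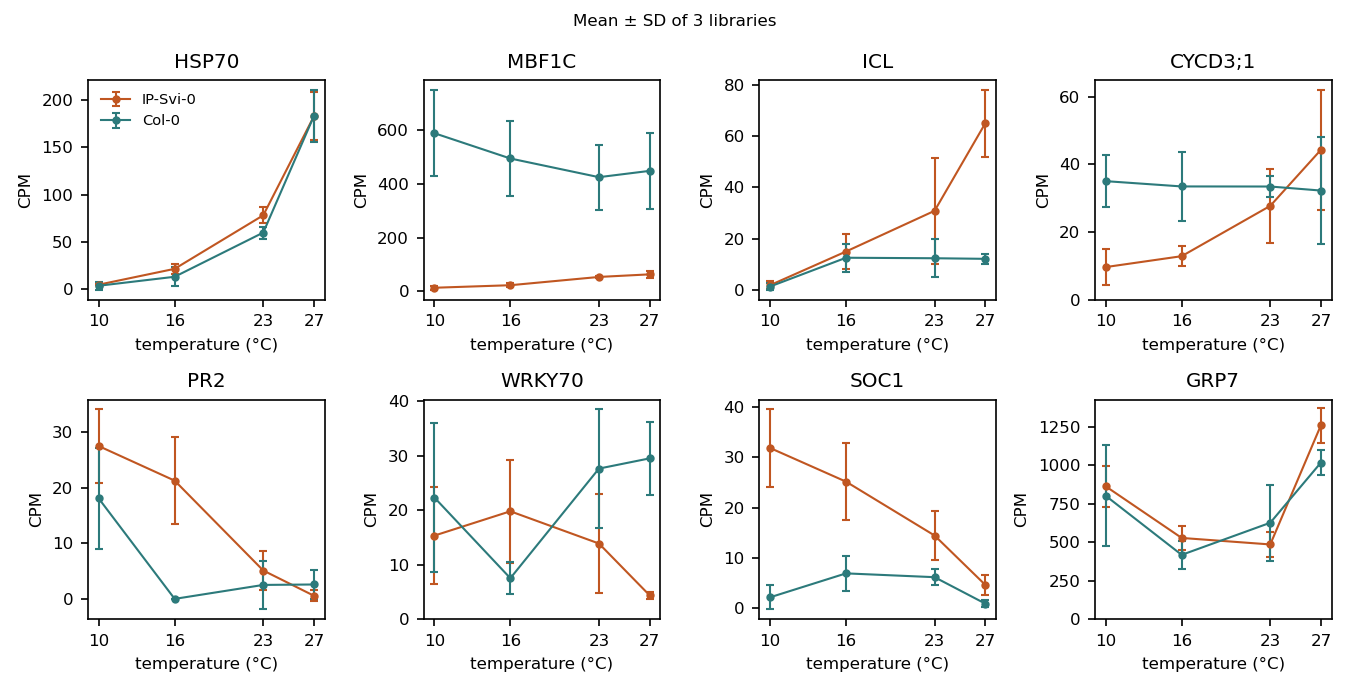
Mean CPM with SD of 3 libraries (vertical axis, linear, a separate scale per gene) at 10, 16, 23 and 27 °C for 8 genes, with IP-Svi-0 in orange and Col-0 in green. The HSP70 mean is higher at each step in both accessions, ICL and CYCD3;1 have higher means at each step in IP-Svi-0 and nearly level ones in Col-0 from 16 °C on, and the WRKY70 mean is lower at 27 than at 16 °C in IP-Svi-0 and higher in Col-0.

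The same comparison in Col-0, also 7 against 12 days, called 405 genes (4.01%) by edgeR, 182 higher (1.8%) and 223 lower (2.21%). This count too rested on single libraries: it was 193 and 233 without 16 °C replicates 2 and 3 of Col-0, and 183 and 175 without its 27 °C replicates 1 and 2. Of the genes called in IP-Svi-0, 95 were also called in Col-0, which is 28.7% of the IP-Svi-0 calls and 23.5% of the Col-0 calls, and all 95 moved the same way, 55 up and 40 down. Of the 331 IP-Svi-0 calls, 303 (91.5%) had the same sign in Col-0, as against 61.5% of all tested genes. HSP70 changed by 3.85 (adjusted p 1.26e-08) in Col-0, HSP90.1 by 3.34 (adjusted p 3.50e-07) and GRP7 by 1.28 (adjusted p 0.00809). SOC1 changed by -2.53 (adjusted p 0.142) in Col-0, where it was low throughout, with means of 2.11 ± 2.36, 6.88 ± 3.43, 6.12 ± 1.61 and 0.854 ± 0.74 CPM at 10, 16, 23 and 27 °C.

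**Figure D4:**
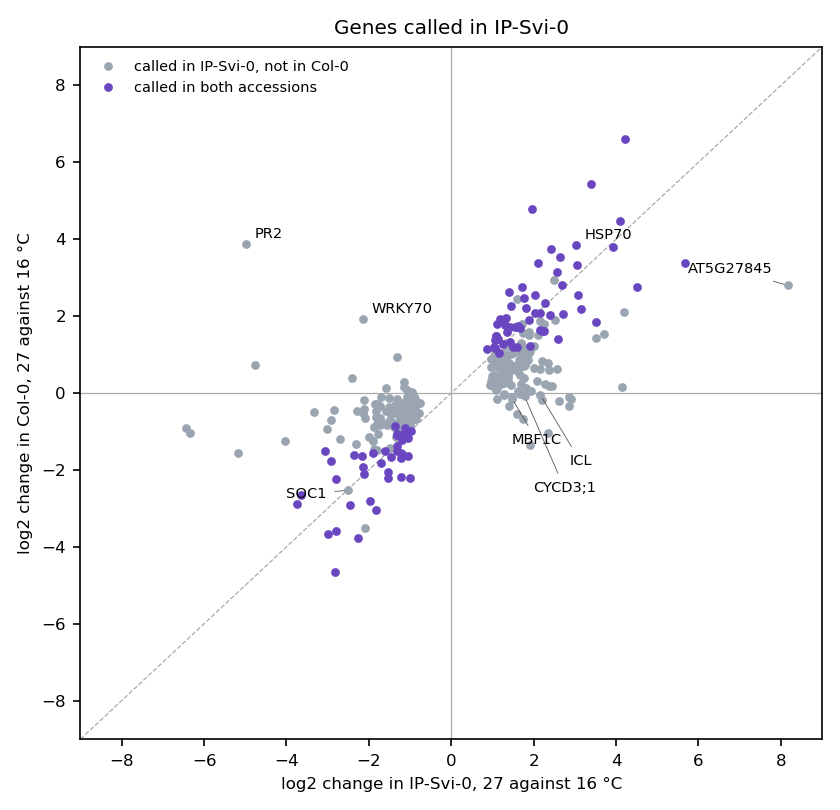
Log2 change at 27 against 16 °C in IP-Svi-0 (horizontal axis) and in Col-0 (vertical axis) for the 331 genes called in IP-Svi-0. Violet points were called in both accessions and grey points in IP-Svi-0 but not in Col-0; the dashed line marks equal change. PR2 and WRKY70 lie at the upper left, with fitted levels lower at 27 °C in IP-Svi-0 and higher in Col-0. Neither was called in Col-0, where PR2 had no count at 16 °C and a mean of 2.59 CPM at 27 °C.

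A call in one accession and not in the other does not show that they differ, so the difference of the responses was tested itself. By edgeR no gene passed (0%), with 696 of 10097 genes at an unadjusted p under 0.05 (6.89%) and a smallest adjusted p of 0.0587; DESeq2 called 3 (MLP328, WRKY33 and AT5G19240, named after the values were seen). The smallest adjusted p belonged to WRKY70, which was among the genes called with the replicate number as a block (2 genes), in a fit of the compared groups alone (5), with the covariate (6) and without organelle genes (5). Its difference of log2 changes, IP-Svi-0 minus Col-0, was -4.06 ± 0.85 (SE), unadjusted p 2.64e-05 and adjusted p 0.0587, and in Col-0 its means were 22.3 ± 13.7, 7.5 ± 2.96, 27.6 ± 10.9 and 29.5 ± 6.64 CPM at 10, 16, 23 and 27 °C. For PR2 the difference was -8.85 ± 2.2 (SE), unadjusted p 2.80e-04 and adjusted p 0.168. In Col-0 PR2 had no count at 16 °C and 0 to 5.28 CPM at 27 °C, so the counts do not fix the size of this difference. Other genes named above with a low unadjusted p were MBF1C (1.62 ± 0.47 (SE), unadjusted p 0.00136 and adjusted p 0.329), GRP3S (-1.55 ± 0.44 (SE), unadjusted p 0.0012 and adjusted p 0.329), CYCD3;1 (1.87 ± 0.58 (SE), unadjusted p 0.00263 and adjusted p 0.42) and ICL (2.2 ± 0.78 (SE), unadjusted p 0.00739 and adjusted p 0.533). They also included the LEA gene AT3G53040 (3.26 ± 1.02 (SE), unadjusted p 0.00293 and adjusted p 0.429), CRA1 (2.41 ± 0.86 (SE), unadjusted p 0.00815 and adjusted p 0.537), HR4 (-5.49 ± 1.41 (SE), unadjusted p 4.39e-04 and adjusted p 0.227), WAK1 (-2.81 ± 0.87 (SE), unadjusted p 0.00246 and adjusted p 0.42) and KIN2 (1.49 ± 0.53 (SE), unadjusted p 0.00783 and adjusted p 0.537). MBF1C stood at 588 ± 161, 494 ± 139.6, 424 ± 121 and 448 ± 140.3 CPM in Col-0 at the 4 temperatures, far above its level in IP-Svi-0. The alignment used the Col-0 genome for both accessions, and the part of sequence differences in this gap was not tested.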

How the data were processed

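RNA was sequenced from whole seedlings of 8 groups with 3 libraries each. The deposited table holds raw read counts per gene for 33602 gene IDs. Per the submitters' processing notes the authors used FastQC, HISAT2, HTSeq, Cufflinks and Cuffdiff on TAIR10, with versions and roles not given in those notes. Its 5 lines of unassigned reads, 96.7 to 97.8% of all reads in the 6 libraries compared, were left out. Genes passing filterByExpr (minimum count 10; 10097 genes) were fitted over all 24 libraries with 1 mean per group, using edgeR 4.0.16 (R 4.3.3) with TMM factors and the quasi-likelihood test, and p-values were adjusted by Benjamini-Hochberg over all tested genes. The response difference was the contrast of both accessions' changes in that fit. The procedure was also run on simulated data, drawn with the spread fitted for each gene. No outlying library was simulated, so that run does not bear on the dependence on single libraries.

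CPM values were computed from the deposited counts with TMM-scaled library sizes. RefSeq names and exons (TAIR10.1) matched 32835 IDs, and 1304 of 1342 entries of 37 gene lists matched. Overlaps count exon bases shared with a gene on the other strand. The members and the lists were chosen with earlier results of these data known. Named genes were the 12 in each direction with the largest change among called genes with separate groups and at least 20 CPM, up to 2 called genes per list and direction by p, and flowering, cold and other genes set by name (a further part, genes called for the response difference, held none). Other called list members, and those said to be so, were picked after their values were seen. Intervals and floors (3 counts) cover counting error only. Alternatives were DESeq2 1.42.0, other size factors, filters, fits and left-out libraries.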

Additional observations from a re-analysis of the deposited data

Results flagged for a closer look

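WRKY70 had changes of opposite sign in the accessions. Its log2 change at 27 against 16 °C was -2.14 in IP-Svi-0, where all 3 libraries at 27 °C lay below those at 16 °C. In Col-0 it was 1.93 (adjusted p 0.0676), and all 3 libraries at 27 °C lay above those at 16 °C. The rule for this section required a call in IP-Svi-0 and libraries separate in opposite directions in the accessions. The separation is therefore no added evidence. The difference of the changes was -4.06 ± 0.85 (SE), unadjusted p 2.64e-05 and adjusted p 0.0587 by edgeR, just above the threshold over all genes. WRKY70 was among the genes called for this difference with a replicate block, in the compared groups alone, with the covariate and without organelle genes. It was not called by DESeq2, with DESeq2 size factors in edgeR, against a fold of 1.5, or among genes without overlap alone. Nor was it called with any 1 IP-Svi-0 library left out. Its call in IP-Svi-0 itself ended without 16 °C replicate 1 or 3 or 27 °C replicate 1 or 2 or 3 (adjusted p up to 0.193).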

How the results depend on the processing

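The number of genes called depended on the fit and on single libraries. No named gene with a call changed sign under the alternatives in which it had a value. Most of these genes were named for a call or a large change, and each alternative refitted the same counts. The kept signs are therefore no separate evidence on direction. Against 177 genes called higher, 154 lower, 405 called in Col-0, 56 called list members and 0 response differences, a fit of the compared groups alone gave 88, 44, 387, 19 and 5, and a test against a fold of 1.5 gave 66, 39, 118, 17 and 0. The share of counts at genes without overlap as a covariate gave 328, 413, 512, 118 and 6. Response differences numbered 3 with DESeq2 (which called 162 higher and 126 lower), 44 with no filter, 40 with at least 1 CPM in 3 libraries and 5 without organelle genes; WRKY70 was among them in the fit of the compared groups alone, with the covariate and without organelle genes. Also, 262 Col-0 genes were called among genes without overlap alone. With 1 library left out, calls ranged from 94 to 251 higher, 52 to 157 lower, 25 to 54 list members, 175 to 478 in Col-0 (at most 420 with a Col-0 library left out) and 0 to 2 response differences. Some of these fits held fewer libraries or genes. The causes of the changed counts, this among them, were not tested.

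Of 92 named genes called, 34 kept their call with any 1 library left out and 58 did not. DESeq2 kept 79 and ended the calls of GSTU17, GSTU1, ELF4, HEME2, Hsp89.1, AT3G17520, HYH, DEG1, MYB29, SIG5, EBF2, CRA1 and PRR3, and it called RBCS1A (log2 change -0.80, adjusted p 0.0211). A fold threshold of 1.5 kept 39, and the compared groups alone kept 35 of 70 with a value.

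Replicate numbers are shared between groups, but same-numbered libraries did not deviate together (correlations -0.18, 0.05 and 0.04), so they were not treated as pairs. A fit with the replicate number as a block gave 177 higher and 138 lower genes, 298 of them shared, with 393 in Col-0, 53 list members and 2 response differences (WRKY70 and AT5G19240), and kept 85 of the 92 named calls.

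Depth limits low genes: 3 counts in a library are 3.05 to 5.90 CPM, so changes of FT, PIF4 and CO rest on few reads.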
